A study of Mus musculus with 9 samples.

Results

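Fragments of 6 mitochondrial tRNAs were counted in serum RNA of mice. The 6 are mt-Asp, mt-Lys, mt-Gly (anticodon TCC), mt-Arg, mt-Leu-TAG and mt-Thr (anticodon TGT), the tRNAs of the far stretch of the mitochondrial heavy-strand transcript with mt-His and mt-Ser-GCT left out. A read was taken as a member's when every one of its alignments lay on the mature reference of 1 of these tRNAs. The rule gave 6 of the 22 mature mitochondrial tRNAs and of the 72 mature tRNAs, named by amino acid and anticodon, that had reads of their own. It gave 645 of 555585 reads, spread over 358 distinct sequences, of which 264 were seen once. No read was shared between a mature reference of these tRNAs and any other reference.

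The study compared 3 groups of 3 serum libraries at week 20. The SalB group had a high fat diet with salvianolic acid B, a phenolic compound of the danshen root named in the series title. The high fat diet group had the diet alone and is the atherosclerosis model of the design text. The normal diet group had neither and is the control; its sample titles carry the strain name C57. Strain, sex, dose and route of the compound for the other groups are not given in the labels, which also do not say that libraries of a group came from separate animals, so that p-values measure the spread between these libraries only. The label "atherosclerosis" stands as the cell type of all 9 libraries, the normal diet included. The tissue label could not be checked against markers, because only tRNA reads were analysed.

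All 22 mitochondrial tRNAs are cut out of long transcripts that run around the circular genome and hold the tRNAs between the protein genes, so that cutting the tRNAs frees the mRNAs as well. RNase P makes the 5′ cut and ELAC2 the 3′ cut, after which TRNT1 adds the CCA tail that the genome does not encode. The heavy-strand promoter lies ahead of mt-Phe, and the tRNAs described here follow further along the same transcript. TRMT10C, a subunit of the mitochondrial RNase P, also methylates the purine at position 9 of many of these tRNAs. Pieces of tRNAs, often cut in or near the anticodon loop, occur in blood.

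The 5 references with reads over their whole length are shown because the cut positions described below can be read from them. They were rebuilt from the aligned reads on the tRNA strand, with the anticodon in capitals, positions counted from 1 at the 5′ end, and the last 3 bases being the CCA tail; the mt-Leu-TAG reference has 1 base, written n, that no read covered. Without the tail their lengths were those of the RefSeq genes on assembly GRCm38.p6, from which the places in the mitochondrial genome were taken: TrnG at chrM:9391-9458 between COX3 and ND3, TrnT at chrM:15289-15355 between CYTB and TrnP, TrnL2 at chrM:11671-11741 between TrnS2 and ND5, TrnR at chrM:9808-9875 between ND3 and ND4L, and TrnK at chrM:7700-7764 between COX2 and ATP8. The sixth, TrnD, lies at chrM:6942-7011 between TrnS1 and COX2, and its reads reached base 63 of 70.
mt-Gly: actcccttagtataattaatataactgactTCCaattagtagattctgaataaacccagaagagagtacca
mt-Thr: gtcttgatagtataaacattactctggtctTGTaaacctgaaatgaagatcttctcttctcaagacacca
mt-Leu-TAG: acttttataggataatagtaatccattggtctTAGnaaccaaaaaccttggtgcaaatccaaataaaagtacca
mt-Arg: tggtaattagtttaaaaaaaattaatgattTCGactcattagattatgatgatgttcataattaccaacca
mt-Lys: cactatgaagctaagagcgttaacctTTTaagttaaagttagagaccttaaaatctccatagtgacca

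The most abundant reads of the 4 members with the most reads are shown next, with the part of the added CCA tail they hold in capitals, because they place the ends of the fragments. The mt-Gly read begins 2 bases after the anticodon, the mt-Thr read 1 base before it, the mt-Leu-TAG read 3 bases after it, and the mt-Arg read runs across it and carries no tail.
mt-Gly, bases 35 to 71: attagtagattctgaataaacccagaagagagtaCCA
mt-Thr, bases 30 to 69: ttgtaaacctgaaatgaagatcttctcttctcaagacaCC
mt-Leu-TAG, bases 38 to 74: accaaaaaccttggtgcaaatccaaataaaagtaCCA
mt-Arg, bases 27 to 48: gatttcgactcattagattatg

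The libraries held 28191 to 156333 tRNA reads, and the values below are counts per 1000000 tRNA reads after scaling of each library to the others (normalised CPM). The scaling factors ran from 0.378 in SalB library 2, the deepest library and apart from the rest, to 1.24. In libraries at this depth a count of 0 allows up to 3 reads, or 27.3 to 86.9 normalised CPM. Reads were copied by PCR and carry no molecular identifiers, so intervals and floors cover counting error only. With this scaling the median log2 difference for all 103 tRNA features tested was 0.62 for SalB over high fat diet and 0.70 for SalB over normal diet. Changes are to be read against those shifts. For SalB over high fat diet, scaling by total tRNA reads put the median at -0.27. It changed the split of calls from 31 higher and 4 lower to 8 higher and 19 lower. Trimmed means taken from the tRNA table itself gave 12 higher and 15 lower.

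Fragments of mt-Gly and mt-Thr were higher in serum of SalB mice than in serum of mice on the high fat diet alone or on normal diet, by about 2 units on the log2 scale. With scaling by total tRNA reads both mt-Gly calls stayed and both mt-Thr calls ended. Fragments of mt-Leu-TAG stood higher in SalB serum by a similar factor on too few reads for the filter. Those of mt-Arg, mt-Lys and mt-Asp overlapped between SalB and the high fat diet. No member differed past the threshold between the high fat diet and the normal diet.

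mt-Gly carries glycine for the GGN codons of the mitochondrial code, and gave 361 reads, 56.0% of all reads of the 6. Its reads numbered 70, 102 and 72 in the SalB libraries, 18, 14 and 23 on the high fat diet and 19, 11 and 32 on normal diet. Scaled, these were 1271, 1728 and 1844 normalised CPM in SalB serum, 263, 406 and 418 on the high fat diet and 357, 310 and 291 on normal diet. Every SalB library was above every library of the other groups, and the high fat and normal diet libraries overlapped. The mean was 1614 ± 303 in SalB serum, 362 ± 86.5 on the high fat diet and 319 ± 34.0 on normal diet (SD, n = 3 each).
The log2 fold change of SalB over high fat diet was 2.16 (SE 0.28, limma-voom, Benjamini-Hochberg adjusted p = 0.000977) and that of SalB over normal diet 2.30 (SE 0.28, adjusted p = 0.000457). Both comparisons share the SalB libraries. For the high fat diet over normal diet it was 0.14 (SE 0.32, adjusted p = 0.958). As a share of tRNA reads without scaling, mt-Gly made up 0.112, 0.0652 and 0.179% in SalB serum, 0.0325, 0.0497 and 0.0518% on the high fat diet and 0.0442, 0.0354 and 0.0338% on normal diet. The groups stayed apart on that scale too, although the 95% exact interval of SalB library 2, 0.0532 to 0.0792%, ran into that of high fat diet library 3, 0.0328 to 0.0777%. Scaled by total reads, the change against the high fat diet was 1.35 (adjusted p = 0.0301), and without SalB library 2 it was 2.18 (adjusted p = 0.000147).

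mt-Thr carries threonine, and its gene is the last one of the heavy-strand tRNAs before the control region. It gave 101 reads, 20, 24 and 17 in the SalB libraries, 5, 8 and 4 on the high fat diet and 3, 4 and 16 on normal diet. The levels were 363, 407 and 435 normalised CPM in SalB serum, 73.0, 232 and 72.8 on the high fat diet and 56.4, 113 and 146 on normal diet. On this scale SalB libraries were again above all others. As a share of tRNA reads without scaling they overlapped, SalB library 2 (0.0154%) lying below high fat diet library 2 (0.0284%) and normal diet library 3 (0.0169%). mt-Thr had passed the filter on low counts through SalB libraries 1 and 3 and high fat diet library 2.
The log2 fold change was 1.80 for SalB over high fat diet (SE 0.47, limma-voom adjusted p = 0.0205) and 1.90 for SalB over normal diet (SE 0.46, adjusted p = 0.0147). The high fat diet over normal diet gave 0.10 (SE 0.51, adjusted p = 0.980). The first call ended under scaling by total reads (0.80, adjusted p = 0.350), with trimmed means from the tRNA table (1.32, adjusted p = 0.0645), in the fit of the 2 groups alone (1.73, adjusted p = 0.0589), and without high fat diet library 1 (1.41, adjusted p = 0.108) or 3 (1.47, adjusted p = 0.0967). The second ended under scaling by total reads (0.96, adjusted p = 0.212) and without normal diet library 1 (1.42, adjusted p = 0.0677), and mt-Thr did not pass the filter without SalB library 1, SalB library 3 or high fat diet library 2, nor against normal diet in the fit of the 2 groups alone.

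Of the 103 tRNA features that passed the filter, 35 (34%) were called between SalB and high fat diet, 31 of them (30.1%) higher, and mt-Gly and mt-Thr, the members that passed, were among the higher ones. Between SalB and normal diet 38 (36.9%) were called, 32 of them (31.1%) higher, again with both. There the split of 32 higher and 6 lower became 8 and 13 with scaling by total reads and 16 and 11 with trimmed means from the tRNA table. Between high fat and normal diet 0 (0%) were called by limma-voom, and 6 (5.83%) had an unadjusted p under 0.05, neither of the pair among them. limma on log2 scaled reads also called 0 there, and a fit of those 2 groups alone called 6.
All values are relative to the tRNA reads of a library, so more fragments of a tRNA in serum and fewer fragments of other tRNAs cannot be told apart.

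**Figure D1:**
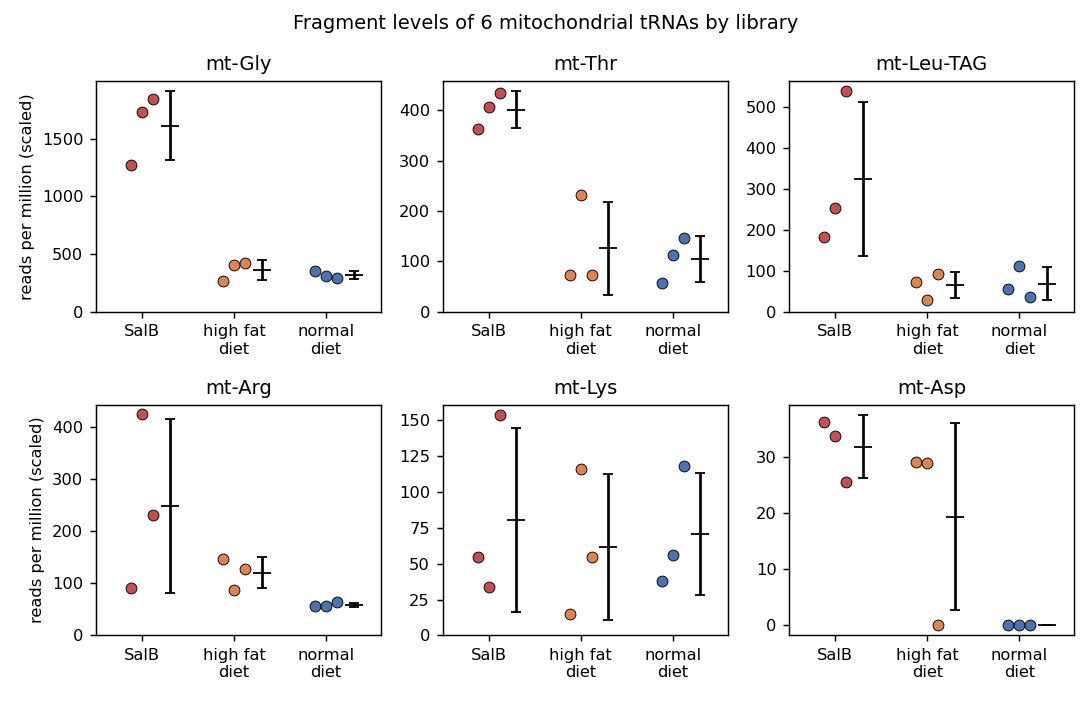
Normalised CPM (y axis, scaled, its own range in each panel) of the 6 mitochondrial tRNAs in each library (points) by group, with the group mean and SD (bars, n = 3 each). The SalB points of mt-Gly (1271 to 1844), mt-Thr (363 to 435) and mt-Leu-TAG (182 to 538) lie above all points of the other groups, while those of mt-Lys and mt-Arg overlap the high fat diet.

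The other 4 members did not pass the filter, which asked for at least 10 reads, scaled to a library of median depth (44415 reads), in 3 or more libraries, and are given by their counts, by the ratio of summed reads with its 95% counting interval, and by a fit without a filter over all 326 tRNA features. That fit called 41 features (12.6%) between SalB and high fat diet, and 43 (13.2%) between SalB and normal diet.

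mt-Leu-TAG carries leucine for the CUN codons; a separate tRNA reads the UUR codons. It had 10, 15 and 21 reads in the SalB libraries, 5, 1 and 5 on the high fat diet and 3, 4 and 4 on normal diet. These were 182, 254 and 538 normalised CPM in SalB serum, 73.0, 29.0 and 90.9 on the high fat diet and 56.4, 113 and 36.4 on normal diet. No SalB library overlapped the others on this scale. As a share of tRNA reads without scaling, SalB library 2 (0.00959%, 95% exact interval 0.00537 to 0.0158%) lay below a library of each diet. These were high fat diet library 3 (0.0113%, 0.00366 to 0.0263%) and normal diet library 2 (0.0129%, 0.00351 to 0.0330%).
The ratio of SalB over high fat diet was 4.31 (interval 2.20 to 9.24) and that of SalB over normal diet 5.42 (2.77 to 11.6). In the fit without a filter the log2 fold change against the high fat diet was 1.99 (SE 0.60, limma-voom adjusted p = 0.0525), which missed the threshold, and that against normal diet 2.23 (SE 0.58, adjusted p = 0.0262), which passed it.

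mt-Arg carries arginine. It had 5, 25 and 9 reads in the SalB libraries, 10, 3 and 7 on the high fat diet and 3, 2 and 7 on normal diet. These were 90.8, 424 and 230 normalised CPM in SalB serum, 146, 86.9 and 127 on the high fat diet and 56.4, 56.3 and 63.7 on normal diet. The normal diet libraries lay within a narrow range below all others, and those of SalB and high fat diet overlapped. The ratio was 2.01 for SalB over high fat diet (interval 1.15 to 3.64), 4.22 for SalB over normal diet (2.16 to 8.84) and 2.10 for the high fat diet over normal diet (0.976 to 4.70). Of the 39 SalB reads 25 came from library 2, without which the ratio was 1.18 over high fat diet (interval 0.549 to 2.45) and 2.46 over normal diet (1.06 to 5.83). In the fit without a filter none of the 3 passed, with limma-voom adjusted p of 0.451 for SalB over high fat diet, 0.0931 for SalB over normal diet and 0.980 for the high fat diet over normal diet.

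mt-Lys carries lysine and stands just before ATP8. Its 36 reads were spread as 3, 2 and 6 in the SalB libraries, 1, 4 and 3 on the high fat diet and 2, 2 and 13 on normal diet, and the groups overlapped. The ratio of SalB over high fat diet was 1.42 (interval 0.520 to 4.06) and that of SalB over normal diet 0.839 (0.355 to 1.90). Of the 17 normal diet reads 13 came from library 3, without which the SalB over normal diet ratio was 1.59 (0.472 to 6.86). Without 1 SalB or high fat diet library the ratio over high fat diet ran from 0.866 to 2.22, and in the fit without a filter the log2 fold change was 0.50 (SE 0.79, limma-voom adjusted p = 0.650).
mt-Asp carries aspartate and gave 8 reads, the fewest of all 22 mitochondrial tRNAs. It had 2, 2 and 1 reads in the SalB libraries, 2, 1 and 0 on the high fat diet and 0 in each normal diet library. The ratio of SalB over high fat diet was 1.72 (interval 0.335 to 11.1), and 1.12 to 2.92 without 1 high fat diet library. A count of 0 in a normal diet library allows up to 27.3 to 84.5 normalised CPM, while SalB serum averaged 31.9, so no fold is given against normal diet. In the fit without a filter that comparison did not pass (limma-voom adjusted p = 0.0602).

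Without a filter, 3 of the 6 members (mt-Gly, mt-Thr, mt-Leu-TAG) had all SalB libraries above all high fat diet libraries, against 66 of 326 features (20.2%), and 5 of the 6, all but mt-Lys and with mt-Asp on 1 or 2 reads a library, had them above all normal diet libraries, against 66 of 326 (20.2%). Between high fat and normal diet mt-Arg was the 1 member without overlap that was higher, against 17 of 326 (5.21%).

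The reads of the 6 together came to 1997, 2880 and 3226 normalised CPM in SalB serum, 598, 898 and 764 on the high fat diet and 564, 648 and 655 on normal diet. Unscaled they were 0.177, 0.109 and 0.314% of tRNA reads in SalB serum, 0.0739, 0.110 and 0.0946% on the high fat diet and 0.0698, 0.0741 and 0.0760% on normal diet, so SalB library 2 (95% exact interval 0.0930 to 0.126%) overlapped the high fat diet there. Among mature mitochondrial tRNA reads other than those of mt-His and mt-Ser-GCT they made up 20.8 to 27.4% in SalB serum, 10.3 to 13.0% on the high fat diet and 7.10 to 14.0% on normal diet. Among all mature mitochondrial tRNA reads the order was the other way round, 1.14 to 1.88% in SalB serum, 2.72 to 3.44% on the high fat diet and 2.42 to 4.27% on normal diet, the denominator being mostly mt-His and mt-Ser-GCT. These sums are descriptions of members chosen together and have no test.

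By level per base of the gene (65 to 71 bases), mt-Gly stood first and mt-Thr second in each group, mt-Gly with 23.7 ± 4.45 normalised CPM per base in SalB serum, 5.33 ± 1.27 on the high fat diet and 4.69 ± 0.50 on normal diet, and mt-Thr with 5.99 ± 0.543 in SalB serum, 1.88 ± 1.37 on the high fat diet and 1.56 ± 0.673 on normal diet (SD, n = 3 each). The lowest mt-Gly library was above the highest mt-Thr library in every group. In SalB serum mt-Leu-TAG (4.57 ± 2.65), mt-Arg (3.65 ± 2.46), mt-Lys (1.24 ± 0.985) and mt-Asp (0.456 ± 0.0802) followed, each but mt-Asp overlapping the one before it. On the high fat diet the order after mt-Thr was mt-Arg, mt-Lys, mt-Leu-TAG and mt-Asp, and on normal diet mt-Lys, mt-Leu-TAG, mt-Arg and mt-Asp, the middle places lying within the spread of the libraries. The second place did so too, as mt-Thr overlapped mt-Arg (1.77 ± 0.444) on the high fat diet and mt-Lys (1.09 ± 0.649) on normal diet.

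The members did not give the same kind of piece. mt-Gly, mt-Thr and mt-Leu-TAG gave mostly pieces that begin in or beside the anticodon and run into the 3′ side of the tRNA, not all of them as far as the tail. mt-Arg gave short pieces across the anticodon, and mt-Lys gave pieces of both ends. A read is called 5′ here when it starts at base 1, 3′ when it ends within 3 bases of the end of the CCA tail, and internal otherwise.
For mt-Gly, 202 reads (56.0%) were 3′, 153 (42.4%) internal and 6 (1.66%) 5′, with a median length of 36 bases. On normal diet alone 19 of 62 (30.6%) were 3′ and 42 (67.7%) internal. No read was longer than 40 bases, and 25 mt-Gly reads were of that length. A read that begins at base 28 or before therefore cannot reach base 68 and counts as internal, wherever its piece ended. Its most used first bases were 33, the last anticodon base (74 reads), and 34, the next one (49 reads). The tail was complete in 110 reads, while 54 ended at base 68, the last base before the tail, and 50 at base 67.

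For mt-Thr, 71 of 101 reads (70.3%, 95% exact interval 60.4 to 79.0%) began at base 30, and 78 (77.2%) held the whole anticodon. By their ends 47 (46.5%) were 3′ and 52 (51.5%) internal. A read of 40 bases, the longest in the libraries, reaches base 69 from there, and 18 mt-Thr reads were of that length. The end of longer pieces was therefore not read, and 21 reads ended at base 69 and 16 at base 70, the end of the tail.
For mt-Leu-TAG, 47 of 68 reads (69.1%, interval 56.7 to 79.8%) began at base 37 or 38 and 52 (76.5%) ended with the complete tail. Its most abundant read, shown above, alone made up 24 of the 68, with 4, 5 and 11 reads in the SalB libraries, 0, 0 and 1 on the high fat diet and 1, 0 and 2 on normal diet.

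For mt-Arg, 65 of 71 reads (91.5%) were internal, with a median length of 23 bases, and 61 (85.9%) held the whole anticodon. The first base was 27 in 22 reads and the last base 48 in 19. For mt-Lys, 17 of 36 reads were 5′ and 13 were 3′. The 5′ ones were 1 of 11 reads in SalB serum, 5 of 8 on the high fat diet and 11 of 17 on normal diet, and the 3′ ones 8 of 11 in SalB serum, 3 of 8 on the high fat diet and 2 of 17 on normal diet. By library the 5′ share was at most 1 of 6 reads in SalB serum, at least 2 of 4 on the high fat diet and at least 7 of 13 on normal diet, on 1 to 13 reads a library, too few for the test.

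**Figure D2:**
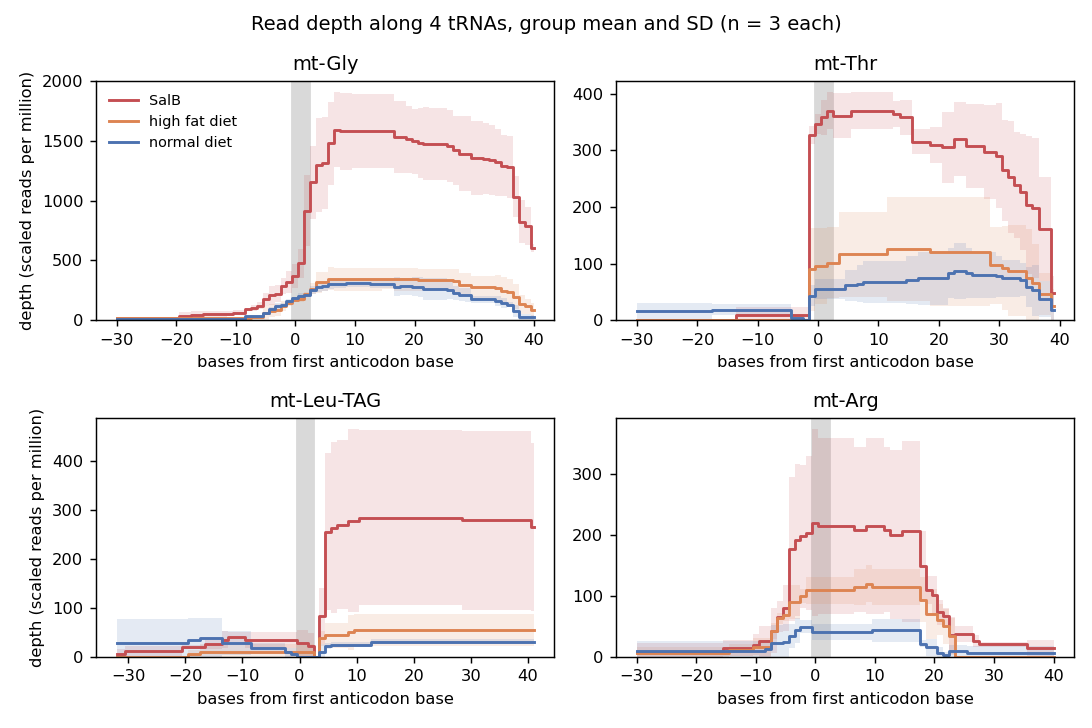
Read depth (y axis, normalised CPM covering each base) along mt-Gly, mt-Thr, mt-Leu-TAG and mt-Arg against the distance in bases from the first anticodon base (x axis, grey band the anticodon), as group mean (lines) and SD (shading, n = 3 each). Depth begins in or beside the anticodon and runs to the 3′ end for mt-Gly, mt-Thr and mt-Leu-TAG, and drops after base 48, which is 17 bases after the first anticodon base, for mt-Arg.

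Split by kind of piece, the 3′ reads of mt-Gly numbered 51, 56 and 48 in the SalB libraries, 5, 9 and 14 on the high fat diet and 4, 1 and 14 on normal diet. Scaled, they were 926, 949 and 1229 normalised CPM in SalB serum, 73.0, 261 and 255 on the high fat diet and 75.2, 28.2 and 127 on normal diet. SalB serum did not overlap with the others, and the log2 fold change was 2.64 over high fat diet (SE 0.51, limma-voom adjusted p = 0.00518) and 3.69 over normal diet (SE 0.55, adjusted p = 0.00135). The difference of high fat over normal diet, 1.05 (SE 0.63, adjusted p = 0.748), did not pass. Scaling by total reads ended the call against the high fat diet (1.78, adjusted p = 0.0552).

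The internal reads of mt-Gly were 327, 762 and 589 normalised CPM in SalB serum, 175, 116 and 164 on the high fat diet and 263, 282 and 164 on normal diet. The changes were smaller, 1.72 over high fat diet (SE 0.46, limma-voom adjusted p = 0.0218) and 1.28 over normal diet (SE 0.42, adjusted p = 0.0367). The first ended when any 1 of the high fat diet libraries was left out (adjusted p 0.0603 to 0.111), with trimmed means from the table of sums (1.22, adjusted p = 0.0532) and under scaling by total reads (0.81, adjusted p = 0.206). The second ended in 7 of 9 fits without a library (adjusted p up to 0.203), under the replicate block (1.25, adjusted p = 0.0543), without a filter (1.26, adjusted p = 0.0843), in the fit of the 2 groups alone (1.23, adjusted p = 0.104), with trimmed means from the table of sums (0.85, adjusted p = 0.104), and under scaling by total reads (0.45, adjusted p = 0.414). Neither the 3′ nor the internal sum passed a stricter filter that asked for 6 libraries, and in reads without mismatch the internal sum did not pass the filter.
Of 169 sums by tRNA and kind of piece that passed the filter, 48 (28.4%) were called between SalB and high fat diet, 37 of them (21.9%) higher. Between SalB and normal diet 66 (39.1%) were called, 51 of them (30.2%) higher, and between high fat and normal diet 0 (0%), with 16 (9.47%) at an unadjusted p under 0.05. Scaling by total reads turned the split from 37 higher and 11 lower to 15 and 29 against the high fat diet, and from 51 and 15 to 16 and 35 against normal diet, and trimmed means from that table gave 21 and 26, and 30 and 26. The median log2 difference over the 169 sums was 0.57 for SalB over high fat diet and 0.54 for SalB over normal diet. The 2 mt-Gly sums were the only sums of a member that passed the filter.

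The share of 3′ reads within mt-Gly was 64.8 ± 9.12% in SalB serum, 51.0 ± 20.2% on the high fat diet and 24.6 ± 17.6% on normal diet (SD, n = 3 each). With reads of at most 40 bases, this share depends on where reads begin as well as on where pieces end. Of the 18 measures compared, with the groups of 3 against 3 unable to give a two-sided exact permutation p below 0.1, none had a Benjamini-Hochberg adjusted p under 0.36. The mean read length was 35.2 ± 1.29 bases in SalB serum, 35.3 ± 0.551 on the high fat diet and 31.8 ± 2.63 on normal diet. mt-Gly reads made up 14.3 ± 1.64% of mature mitochondrial reads other than mt-His and mt-Ser-GCT in SalB serum, 5.80 ± 1.29% on the high fat diet and 4.81 ± 1.42% on normal diet (exact permutation p = 0.1 for SalB against either diet, adjusted p = 0.36).

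Reads with the most used start were a larger part of a member's reads in SalB serum than in the other groups for 4 of the members, in libraries pooled by group. For mt-Gly, reads beginning at base 33 or 34 were 103 of 244 (42.2%) in SalB serum, 12 of 55 (21.8%) on the high fat diet and 8 of 62 (12.9%) on normal diet. For mt-Thr, reads beginning at base 30 were 49 of 61 (80.3%) in SalB serum, 12 of 17 (70.6%) on the high fat diet and 10 of 23 (43.5%) on normal diet. For mt-Leu-TAG, reads beginning at base 37 or 38 were 36 of 46 (78.3%) in SalB serum, 7 of 11 (63.6%) on the high fat diet and 4 of 11 (36.4%) on normal diet.
For mt-Arg, reads beginning at base 27 were 16 of 39 (41.0%) in SalB serum, 4 of 20 (20.0%) on the high fat diet and 2 of 12 (16.7%) on normal diet. Of these 16 reads, 12 came from SalB library 2. By library the SalB shares of mt-Gly, 35.7 to 47.1%, lay above those of the high fat diet, 11.1 to 28.6%, and of normal diet, 6.25 to 26.3%. Those of mt-Thr, mt-Leu-TAG and mt-Arg overlapped the high fat diet. These starts were picked from the same reads after their counts were seen, and SalB serum gave 406 of the 645 reads, so the shares are descriptions without a test. Each of these starts was also used on the high fat diet and on normal diet.

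**Figure D3:**
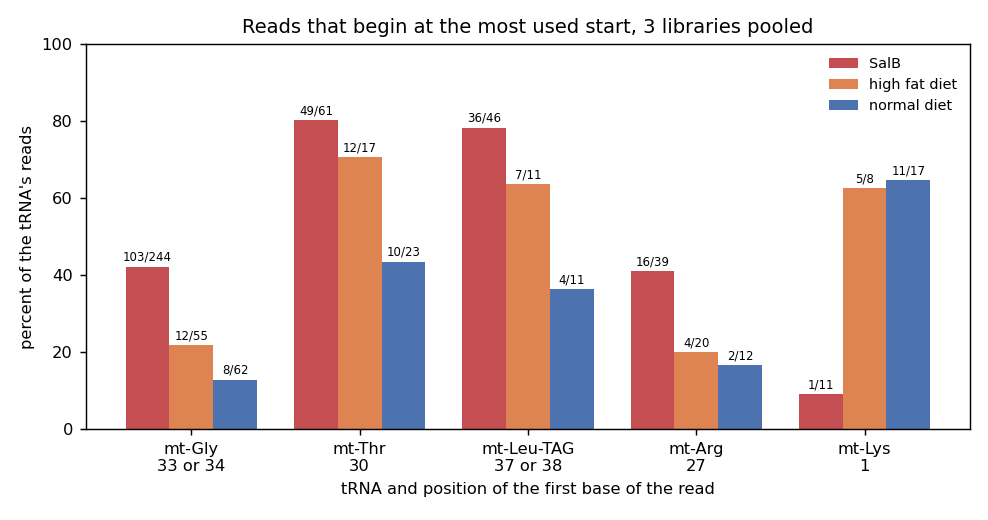
Percent of a tRNA's reads (y axis) that begin at its most used first base (x axis, positions from the 5′ end), 3 libraries pooled per group, with the reads behind each bar above it. The SalB bar is the highest for mt-Gly (42.2%), mt-Thr (80.3%), mt-Leu-TAG (78.3%) and mt-Arg (41.0%), and the lowest for mt-Lys, where 1 of 11 reads begins at base 1.

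Single sequences of the members were too rare for a test: none of the 733 sequences that passed the filter was a member's. The most abundant mt-Gly sequence had 1, 6 and 5 reads in the SalB libraries, 0, 2 and 3 on the high fat diet and 0, 0 and 1 on normal diet. A second one, bases 33 to 71, had 3, 7 and 4 reads in SalB serum, 1, 1 and 0 on the high fat diet and 1, 0 and 0 on normal diet. The most abundant mt-Thr sequence had 1, 3 and 5 reads in the SalB libraries and 0 in the other 6. Without a filter, 864 of 41240 sequences (2.1%) were called between SalB and high fat diet, 4 of them among the 358 of the members, and 984 (2.39%) between SalB and normal diet, 8 of them among the members' 358, all with at most 24 reads in all 9 libraries.

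Reads differing from the reference by 1 base were 223 of the 645 (34.6%), and no read with more was kept by the authors' alignment. All 6 members have A at position 9, the position that TRMT10C methylates. Reads over that position were few, since most fragments begin after it. A mismatch stood there in 5 of 18 mt-Lys reads (27.8%, 95% exact interval 9.69 to 53.5%), 3 of them A9G and 2 A9T, counted from the 5′ end. It stood there in 2 of 5 mt-Leu-TAG reads and 1 of 3 mt-Arg reads, and in 0 of 6 mt-Gly, 0 of 2 mt-Thr and 0 of 2 mt-Asp reads. Outside the members, tRNAs with 10 or more reads over the position had unequal shares of mismatches. Of those with A there, mt-Asn had 38 of 66 and mt-His 22 of 37, against 4 of 26 for mt-Val, 1 of 48 for mt-Glu and 0 of 13 for mt-Pro. Of those with G, mt-Tyr had 3 of 14 and mt-Leu-TAA 4 of 47, against 1 of 139 for mt-Gln, 0 of 24 for mt-Cys and 0 of 22 for mt-Ile. mt-Lys was the 1 member with 10 or more reads over the position, 1 of them from SalB serum, so that the groups could not be compared. A mismatch at the last base of the read was present in 7.35% (mt-Leu-TAG) to 27.8% (mt-Lys) of the members' reads.

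Among the other mitochondrial tRNAs, the left out neighbours mt-His and mt-Ser-GCT had higher levels in every group. mt-His averaged 108285 normalised CPM in SalB serum, 5102 on the high fat diet and 4671 on normal diet, and mt-Ser-GCT 66602 in SalB serum, 12098 on the high fat diet and 9305 on normal diet. Between SalB and high fat diet mt-His had a log2 fold change of 4.40 (SE 0.22, limma-voom adjusted p = 8.06e-07), and mt-Ser-GCT one of 2.40 (SE 0.35, adjusted p = 0.00139). Of the promoter-proximal heavy-strand tRNAs 3 of 6 passed the filter and 2 were higher, with a median change of 1.08. Of the light-strand tRNAs 4 of 8 passed the filter and 0 were called, with a median of 0.42. The 2 members tested had a median of 1.98. These medians leave out the tRNAs that did not pass the filter, so they do not rank the classes. Without a filter, the changes of the 6 members ran from 0.50 (mt-Lys) to 2.16 (mt-Gly). Those of the 6 promoter-proximal tRNAs ran from 0.89 (mt-Met) to 2.498 (mt-Trp), and those of the 8 light-strand ones from 0.13 (mt-Ser-TGA) to 1.83 (mt-Tyr). The ranges overlapped, and no difference between these classes was tested.
By normalised CPM with no filter, all SalB libraries were above all high fat diet libraries for 5 of the 6 promoter-proximal tRNAs. The same held for 1 of the 8 light-strand ones and 3 of the 6 members. Against normal diet it held for 5 of 6, 4 of 8 and 5 of 6, in the same order. Over all features it held for 66 of 326 (20.2%) in either comparison. By mean level among the 22, mt-Gly held place 4 in SalB serum, 8 on the high fat diet and 7 on normal diet, while mt-Asp held place 22 in each.

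**Figure D4:**
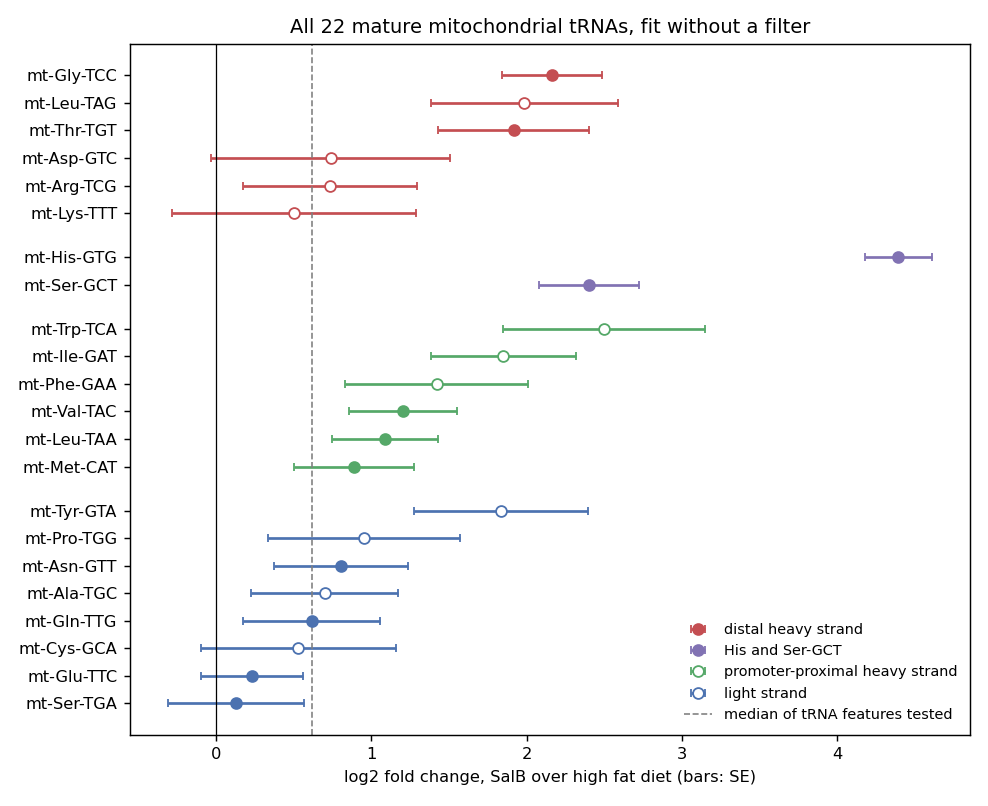
Log2 fold change of SalB over high fat diet (x axis, points, with SE as bars) for all 22 mature mitochondrial tRNAs in the fit without a filter, grouped by place in the genome (y axis), filled where the tRNA also passed the filter, with the median of the 103 tRNA features tested as a dashed line. mt-Gly (2.16), mt-Leu-TAG (1.99) and mt-Thr (1.92) lie to the right of the dashed line by more than their SE, and mt-Asp, mt-Arg and mt-Lys lie within their SE of it.

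The tRNA features whose log2 levels over the 9 libraries were most like those of mt-Gly, out of 102, were mt-His (Pearson r = 0.968) and mt-Ser-GCT (r = 0.955), and for mt-Thr they were mt-Asn (r = 0.861) and the precursor of Arg-ACG (r = 0.856). The 9 libraries fall into the 3 study groups and share their depth and scaling, so these values describe likeness and carry no p-value.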

How the data were processed

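Small RNA of 9 mouse serum libraries was made with a kit for tRNA fragments and sequenced on an Illumina NextSeq, per the labels' protocols. FastQC, cutadapt, Bowtie, edgeR and the build mm10 are named, without roles, in the submitters' processing notes; alignment settings are not given there. Each file deposited by the authors lists alignments of collapsed reads to mature and precursor tRNA references, with the read count inside the read name. A check of the files showed forward-strand alignments, reads of 14 to 40 bases and at most 1 mismatch. Only tRNA reads are listed, so the totals are not the full depth of the libraries.

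The deposited counts were summed per tRNA, per tRNA and kind of piece, and per sequence. Reads that met several tRNAs formed features of their own. Because counts stand in read names, limma-voom (limma 3.58.1, R 4.3.3) was used for all tests, on all 9 libraries, with scaling by trimmed means of M values (trims 0.3 and 0.05) computed from the sequence table, a filter of 10 reads at the median depth in 3 libraries and 15 reads in all, two-sided, and Benjamini-Hochberg adjustment over each whole table at 0.05. The fit was tested on simulated data with 1 spread for all features and as many rises as falls. That simulation did not include the uneven split of higher and lower calls seen between SalB and the diets. Composition measures needed 10 reads in every library and used exact permutation tests (scipy 1.17.1). Intervals are exact, at 95%; that of a ratio of summed reads is conditional on the sum of the 2 groups and scaled by their library sizes. A chi-square test over sequences, divided by its degrees of freedom, gave 2.60 to 58.0 for pairs of libraries within a group, above the value near 1 that resampling of 1 library would give, so none was merged. Alternatives were other scalings, filters, read sets, pseudocounts of 1 and 0.5, a replicate block and leaving out each library. Ratios of summed reads without a library were added after the data were seen. Named were all 6 members, their sums and sequences that passed the filter, their 2 most abundant sequences, and the 2 most similar features. The members and lists were chosen with earlier results of these data known.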

Additional observations from a re-analysis of the deposited data

Results flagged for a closer look

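Reads on precursor references of the 6 tRNAs, which enter no comparison of the results above, numbered 34 in SalB serum, 5 on the high fat diet and 5 on normal diet, and drew attention because the SalB sum stood above that of the normal diet. By library they were 10, 21 and 3 in SalB serum, 2, 2 and 1 on the high fat diet and 2, 0 and 3 on normal diet, which is 182, 356 and 76.8 normalised CPM in SalB serum, 29.2, 57.9 and 18.2 on the high fat diet and 37.6, 0 and 27.3 on normal diet. Precursors of mt-Thr gave 19 of these 44 reads, 12 of them in SalB library 2. The difference was not tested.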

How the results depend on the processing

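mt-Gly as a whole kept its direction and its call in SalB against both diets under every alternative run, with log2 fold changes of 1.35 to 2.31 against the high fat diet and 1.55 to 2.49 against normal diet. Of the 2 members called in the tRNA table, 1 was called between SalB and high fat diet under scaling by total reads, trimmed means from the table itself, the stricter filter, reads without mismatch and a fit of the 2 groups alone, and 1 to 2 when a library was left out. Between SalB and normal diet it was 1 under total reads, the stricter filter, reads without mismatch and the 2 groups alone, and 1 to 2 without a library. Of the 2 sums by kind of piece, SalB against high fat diet kept 0 under total reads and the stricter filter, 1 under trimmed means from the table and reads without mismatch, and 1 to 2 without a library. Against normal diet it kept 0 under the stricter filter, 1 under total reads, trimmed means from the table, the replicate block, reads without mismatch and the 2 groups alone, and 1 to 2 without a library. In the stricter filter and reads without mismatch fewer members passed the filter. mt-Thr also did not pass it in some fits without a library, nor against normal diet in the 2 groups alone, as given above. Elsewhere the cause was not tested. The change of mt-Thr between high fat and normal diet turned to -0.051 without a filter and ran from -0.30 (without normal diet library 1) to 0.40 without a library, none past the threshold. Without a filter on sequences, 864 of 41240 (2.1%) were called between SalB and high fat diet and 984 (2.39%) between SalB and normal diet. Of the 358 member sequences 4 and 8 were called, in place of 0, all on 6 to 24 reads. The 4, named after their values were seen, were the most abundant ones of mt-Leu-TAG and mt-Thr and those of mt-Gly over bases 37 to 71 and 32 to 71. In reads without mismatch the mismatch share of mt-Gly is 0 by construction. A minimum of 20 reads left no composition measure to compare.

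Over all tRNA features, 35 calls between SalB and high fat diet became 10 in the fit of the 2 groups alone, 20 in reads without mismatch and 8 to 11 without 1 high fat diet library. The 38 calls between SalB and normal diet became 21 under total reads, 20 in the 2 groups alone, 25 in reads without mismatch and 15 to 25 without high fat diet library 2 or 3 or any 1 normal diet library. Of the sums by kind of piece, the 48 calls against the high fat diet became 19 to 26 without 1 high fat diet library, and the 66 against normal diet became 42 in the 2 groups alone and 39 without normal diet library 3. Same-numbered libraries correlated by -0.33 to 0.15 after removal of group means, and differently numbered ones by -0.25 to 0.25. This gave no sign that the numbers pair the libraries, but with 3 libraries a group it cannot exclude pairing. With the replicate block mt-Gly changed by 2.14 and mt-Thr by 1.77 against the high fat diet, and the 35 calls became 27. Depth limits mt-Lys and mt-Asp most, at 36 and 8 reads in all.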
